A study of Mus musculus with 12 samples.

Results

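The 10 genes described here encode enzymes that make serine, asparagine and proline and that carry folate-bound carbon in mitochondria. They were taken by symbol (Asns, Psat1, Phgdh, Psph, Shmt2, Mthfd2, Mthfd1l, Aldh1l2, Aldh18a1 and Pycr1), and all 10 were found among the 19405 genes of 2 deposited expression tables. The set was assembled because Mthfd2, Asns and Psat1 were already known to be far higher in HDAC3 knockout hearts. Their values in that comparison are therefore given as a description, without a test.

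The study sequenced total RNA from mouse hearts as 4 groups of 3 libraries, 12 in all. Hearts labelled HDAC3 KO (knockout) were set against wild-type (WT) hearts of the same experiment, and hearts of the genotype NS-DADm against a WT group of their own. HDAC3 is a histone deacetylase that is active when bound to the corepressors NCOR and SMRT. In NS-DADm the deacetylase-activating domains of both corepressors are mutated, and the study text calls the HDAC3 of these hearts inactive. KO thus targets the protein and its activity together, and NS-DADm is described as a loss of activity. Each mutant was set against WT in a separate experiment, so the mutants may differ in more than this. The labels give no age, sex, strain, treatment or Cre driver for any group, and they mark the replicates as biological but do not tie them to animals. The p-values measure the spread between these libraries. Heart tissue holds many cell types, and in such samples fewer cells of a type and less RNA per cell cannot be told apart.

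Serine is built from a glycolytic intermediate in 3 steps: PHGDH oxidises 3-phosphoglycerate, PSAT1 adds an amino group from glutamate, and PSPH removes the phosphate. Serine then gives a carbon to folate through SHMT2 in mitochondria, and MTHFD2, MTHFD1L and ALDH1L2 carry that carbon on to formate or carbon dioxide. ALDH18A1 and PYCR1 turn glutamate into proline, and ASNS moves an amide group from glutamine to aspartate to make asparagine. In mammalian cells many of these genes are known targets of the transcription factor ATF4, and their induction is a known feature of mitochondrial stress in muscle and heart.

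Levels are FPKM, fragments per kilobase of transcript and per M fragments (M, mega), which is per length, so that levels of different genes can be set side by side within a table. Fold changes from the model are on the scale of log2(FPKM + 1) with standard errors (SE), and a plain fold is the ratio of 2 group means of FPKM. Summed over all genes, FPKM ranged from 605736.6 to 650460.5 per library for KO and its WT, and from 531362.2 to 560144.3 for NS-DADm and its WT. The steps between low values put the depth at about 8.3 to 13 M fragments in the listed genes per library. This is a rough estimate from a search over a bounded range, and the fragment numbers given below rest on it. Hdac3 (chromosome 18, 37935844 to 37955016 of GRCm38.p6) was at 28.1 ± 1.19 FPKM in WT and 7.9 ± 0.6 in KO (SD, n = 3), a fall of 1.71 on the log2 scale (limma adjusted p = 2.37e-09). It was at 29.8 ± 2.02 in the WT and 29.8 ± 0.804 in the mutant hearts of the NS-DADm experiment. Ncor1 (chromosome 11, 62316426 to 62458541) was at 22.9 ± 1.16 and 24.3 ± 1.01 in that experiment, and a change in these domains need not change its RNA level.

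Some libraries stood apart in ways the genotype labels do not describe. The Y-linked genes Ddx3y, Eif2s3y, Kdm5d and Uty summed to 0.1 FPKM in every WT library and to 77.1 to 80.2 in the KO libraries of that experiment. Sex-linked RNA and genotype cannot be told apart there. In the NS-DADm experiment the group means of Ddx3y and Eif2s3y were 0.02 FPKM or less in WT and mutant alike. The differences between the KO and NS-DADm effects given below therefore carry this difference as well. In the NS-DADm experiment the atrial gene Myl7 was at 50.9, 9.77 and 795.5 FPKM in WT replicates 1, 2 and 3, and at 446.3, 84.3 and 804.5 in the mutants. WT replicate 3 and NS-DADm replicates 1 and 3 thus held far more atrial RNA than the other 3 libraries, and the values that rest on them are given again where they are used.

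Mthfd2 (chromosome 6, 83305691 to 83325908, minus strand) encodes the mitochondrial methylenetetrahydrofolate dehydrogenase and cyclohydrolase, best known from embryonic and tumour tissue. It was at 2.15, 2.44 and 2.94 FPKM in the WT libraries and at 54.2, 53.5 and 51.4 in the KO libraries. All KO libraries lay far above all WT libraries, with means of 2.51 ± 0.4 and 53.0 ± 1.46 FPKM, 21.1-fold apart. In the authors' deposited table the fold change was 20.0. The fitted difference was 3.95 on the log2 scale (SE 0.0779). In the KO hearts Mthfd2 was the most abundant of the 10 transcripts, whereas in their WT it overlapped with Aldh18a1 and Aldh1l2, its neighbours in the order of levels.

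Mthfd2 also rose in the NS-DADm hearts, on a smaller scale. It was at 0.84, 1.28 and 1.51 FPKM in WT and at 3.34, 2.47 and 4.68 in the mutant, from means of 1.21 ± 0.34 to 3.5 ± 1.11, 2.89-fold. The groups did not overlap, and the lowest mutant library was still above the highest WT library. The fitted rise was 1.01 on the log2 scale (SE 0.187, limma adjusted p = 0.0289 over all genes tested), and the authors' deposited table gave a fold change of 2.61 with a q-value of 0.000313. These levels rest on few fragments, about 19 to 34 per WT library and 64 to 120 per mutant library.

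Of the 8 members that could be tested in NS-DADm, Mthfd2 was the one called, where 2.69% of all genes tested were called (315 of 11705) and 1.26% were called higher. Unadjusted, 3 of the 8 (Mthfd2, Asns and Aldh1l2) were under 0.05 in limma's test, where 18.4% of all genes tested were. The call was lost without WT replicate 1, WT replicate 2 or the atrial-rich NS-DADm replicate 1 (limma adjusted p = 0.0992, 0.11 and 0.0841). It was kept without WT replicate 3 (limma adjusted p = 0.0442) and without NS-DADm replicate 3 (limma adjusted p = 0.0494), which are atrial-rich too. With the level of atrial markers as a term the rise was 0.84 (SE 0.17, limma adjusted p = 0.048). Measured against its own WT, the difference of Mthfd2 in KO exceeded that in NS-DADm by 2.94 on the log2 scale (SE 0.218), which is given without a test because the KO values chose the gene.

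**Figure D1:**
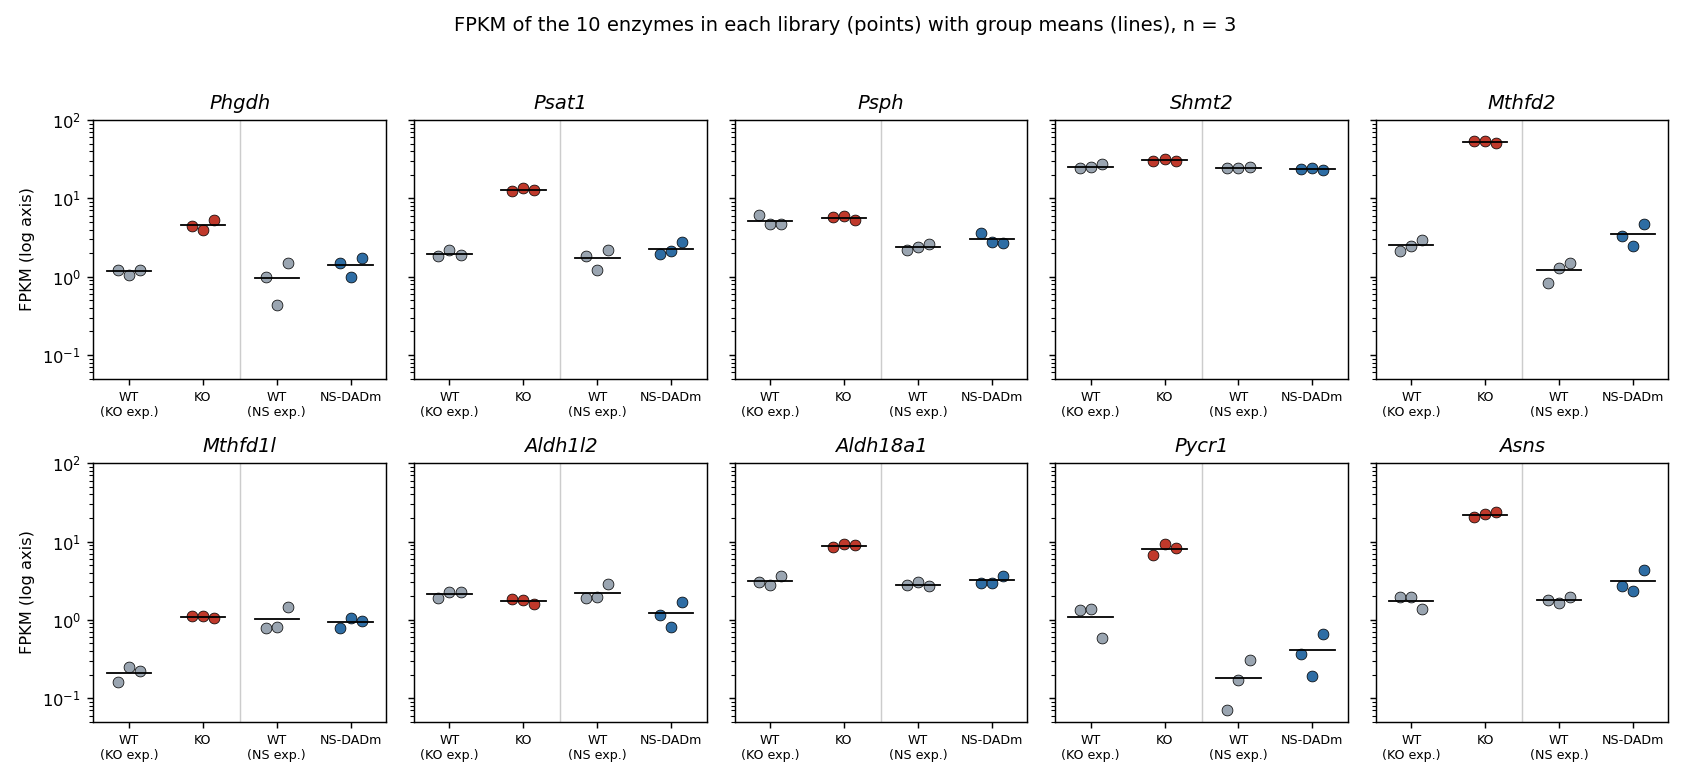
FPKM of the 10 enzymes (logarithmic axis) in each library of the 4 groups, with points for libraries and lines for group means (n = 3). Mthfd2 lies between 51.4 and 54.2 in KO against 2.15 to 2.94 in WT, while Shmt2 stays between 22.8 and 31.4 in all 12 libraries.

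The other enzymes of mitochondrial folate did not share the size of this difference. Shmt2 (chromosome 10, 127517123 to 127522444, minus strand), which splits serine into glycine and a folate-bound carbon, was already the most abundant member in WT. It was at 24.5, 24.9 and 27.1 FPKM in WT and at 29.8, 31.4 and 30.1 in KO. The groups did not overlap, but the means of 25.5 ± 1.41 and 30.4 ± 0.847 were only 1.19-fold apart. With each library centred on its median gene the fitted difference of Shmt2 went from 0.25 to 0.16 on the log2 scale. In NS-DADm Shmt2 was at 23.8 ± 0.956 FPKM against 24.7 ± 0.601 in WT, a difference of -0.05 on the log2 scale (SE 0.0614, limma adjusted p = 0.712).

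Mthfd1l (chromosome 10, 3973118 to 4167081, plus strand), the mitochondrial formate-releasing enzyme, was low throughout. It was at 0.16, 0.25 and 0.22 FPKM in WT and at 1.11, 1.11 and 1.07 in KO. The KO libraries were all higher, 5.22-fold in the mean. Its WT values stand for about 5 to 7 fragments each, and it passed the minimum of 1 FPKM only through the KO libraries, which fixes its direction. In the NS-DADm experiment it was at 0.79, 0.81 and 1.44 FPKM in WT and at 0.78, 1.05 and 0.96 in the mutant. The groups overlapped and the gene did not reach the minimum for a test. The WT levels of Mthfd1l differed between the tables, which were normalised separately, so that level was not compared.

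Aldh1l2 (chromosome 10, 83487450 to 83534140, minus strand), which oxidises formyl-folate to carbon dioxide and makes NADPH in mitochondria, lay in the other direction. It was at 1.89, 2.27 and 2.28 FPKM in WT and at 1.84, 1.77 and 1.6 in KO. Every KO library was below every WT library, by a narrow margin, with a fitted difference of -0.20 on the log2 scale (SE 0.0864). In the NS-DADm experiment it was at 1.91, 1.93 and 2.85 FPKM in WT and at 1.14, 0.8 and 1.71 in the mutant. The mutant libraries were again all lower, 1.83-fold in the mean, and the highest values of both groups came from the atrial-rich replicate 3.

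The difference of -0.55 (SE 0.172) in Aldh1l2 did not pass the test over all genes (limma adjusted p = 0.132). With the level of atrial markers as a term, an alternative chosen after seeing the data, it was -0.74 and passed (SE 0.132, limma adjusted p = 0.032). The authors' deposited table gave a fold change of -1.74 with a q-value of 0.0281. Aldh1l2 was thus lower in all NS-DADm libraries, and whether the difference passes depends on the model.

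Asns (chromosome 6, 7675169 to 7693254, minus strand), the asparagine synthetase, had the second largest fold among the members. It was at 1.95, 1.97 and 1.37 FPKM in WT and at 20.4, 22.2 and 23.8 in KO. The groups were far apart, at 1.76 ± 0.341 and 22.1 ± 1.73 FPKM, 12.5-fold, with a fitted difference of 3.07 on the log2 scale (SE 0.0963). In the NS-DADm experiment Asns was at 1.8, 1.64 and 1.96 FPKM in WT and at 2.69, 2.36 and 4.34 in the mutant. All mutant libraries were higher, 1.74-fold in the mean, but the fitted difference of 0.53 did not pass the test (SE 0.164, limma adjusted p = 0.13). Replicate 3 carried much of it, since without that library the value was 0.33 (SE 0.117, limma adjusted p = 0.206).

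ATF4 binds, with C/EBP partners, a composite element whose core can be written TGATGNAAN, known in human ASNS as part of the nutrient-sensing response element. Promoter windows from RefSeq (GRCm38.p6, 250 bases before to 50 after the annotated start) were searched for these letters on both strands. Windows were on hand for 9 of the 10 members (2 windows for Psat1), and 2 members held a match, Asns at 23 bases before the start and Pycr1 at 103 bases before it. Among all 27025 genes with a window 4.5% held one (3.95% of 32851 windows), and the tighter form TGATGCAAN was held by 1 member (Pycr1) and by 1.02% of all genes. Both are printed 5′ to 3′ because they carry the letters, with the match in capitals.
Asns, chr6:7693160-7693459, minus strand: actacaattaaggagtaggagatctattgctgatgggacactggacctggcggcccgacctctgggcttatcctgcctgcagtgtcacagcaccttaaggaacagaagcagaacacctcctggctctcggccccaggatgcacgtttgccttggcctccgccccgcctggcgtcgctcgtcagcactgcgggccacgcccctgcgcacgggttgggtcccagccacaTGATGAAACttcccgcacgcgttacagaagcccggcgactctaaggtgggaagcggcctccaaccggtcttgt
Pycr1, chr11:120643699-120643998, minus strand: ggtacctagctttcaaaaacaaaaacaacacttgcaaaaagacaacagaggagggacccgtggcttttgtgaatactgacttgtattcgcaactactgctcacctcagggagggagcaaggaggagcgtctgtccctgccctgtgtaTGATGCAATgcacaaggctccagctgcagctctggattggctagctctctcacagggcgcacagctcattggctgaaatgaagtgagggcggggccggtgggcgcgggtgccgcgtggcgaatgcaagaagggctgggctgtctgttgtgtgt

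The Asns match reads TGATGAAAC and the Pycr1 match TGATGCAAT. The windows of Mthfd2 and Psat1, which had the first and the fourth largest folds in KO, did not hold those letters, which says nothing of the rest of these genes. They were searched, after the data were seen, for CCAAT, the box bound by the factor NF-Y, on both strands, and the Mthfd2 window and 1 of the Psat1 windows each held 3 matches that do not overlap one another. CCAAT was held by 5 of the 9 members and by 41.1% of all genes with a window, so it is common. The windows are printed with CCAAT, or ATTGG where it lies on the other strand, in capitals. Both windows lie at a RefSeq start, inside the longer gene spans given here for Mthfd2 and Psat1.
Mthfd2, chr6:83317555-83317854, minus strand: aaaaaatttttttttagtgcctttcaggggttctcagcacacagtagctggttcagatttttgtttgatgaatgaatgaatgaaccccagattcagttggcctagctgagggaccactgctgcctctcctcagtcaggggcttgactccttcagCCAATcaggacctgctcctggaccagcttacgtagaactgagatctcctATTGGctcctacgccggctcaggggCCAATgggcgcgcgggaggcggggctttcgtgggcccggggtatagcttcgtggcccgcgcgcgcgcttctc
Psat1, chr19:15925010-15925309, minus strand: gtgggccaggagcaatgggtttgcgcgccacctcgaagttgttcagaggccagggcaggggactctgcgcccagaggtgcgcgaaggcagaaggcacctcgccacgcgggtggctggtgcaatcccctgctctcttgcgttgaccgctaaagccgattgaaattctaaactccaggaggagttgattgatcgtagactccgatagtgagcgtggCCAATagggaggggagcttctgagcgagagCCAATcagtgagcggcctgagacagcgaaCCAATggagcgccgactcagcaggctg

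The serine branch was uneven from step to step. Phgdh (chromosome 3, 98313170 to 98339990, minus strand), the first enzyme, was at 1.23, 1.05 and 1.22 FPKM in WT and at 4.4, 3.92 and 5.29 in KO. The groups were separate, 3.89-fold apart in the mean. Psat1 (chromosome 19, 15904678 to 15947337, minus strand), the transaminase, was at 1.82, 2.18 and 1.88 FPKM in WT and at 12.6, 13.4 and 12.8 in KO. The KO libraries were close to one another and 6.60-fold above WT in the mean, with a fitted difference of 2.24 on the log2 scale (SE 0.0709).

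Psph (chromosome 5, 129765558 to 129787449, minus strand), the last enzyme, was at 6.18, 4.73 and 4.65 FPKM in WT and at 5.8, 5.9 and 5.27 in KO. These groups overlapped, with means of 5.19 ± 0.861 and 5.66 ± 0.339 FPKM. In WT hearts the phosphatase was thus the most abundant of the serine enzymes, and in KO hearts Psat1 was, above Psph in every library. The summed FPKM of the branch was 8.31 ± 0.801 in WT and 23.1 ± 0.333 in KO.

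In NS-DADm none of the serine enzymes passed the test. Psat1 was at 1.81, 1.22 and 2.18 FPKM in WT and at 1.96, 2.13 and 2.75 in the mutant, overlapping groups with a fitted difference of 0.27 (SE 0.152, limma adjusted p = 0.381). Phgdh overlapped too, at 0.967 ± 0.52 and 1.4 ± 0.367 FPKM, a difference of 0.31 (SE 0.202, limma adjusted p = 0.455). Psph was at 2.2, 2.39 and 2.64 FPKM in WT and at 3.58, 2.75 and 2.69 in the mutant. The Psph groups did not overlap, yet the gap was small beside the spread (0.23 on the log2 scale, SE 0.114, limma adjusted p = 0.326).

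For proline, Aldh18a1 (chromosome 19, 40550257 to 40588463, minus strand), which makes the glutamate semialdehyde, was at 3.05, 2.82 and 3.65 FPKM in WT and at 8.52, 9.17 and 8.96 in KO. The groups were separate and 2.80-fold apart in the mean. Pycr1 (chromosome 11, 120635712 to 120643769, minus strand), the mitochondrial reductase of the last step, was at 1.33, 1.39 and 0.58 FPKM in WT and at 6.68, 9.3 and 8.2 in KO. All KO libraries were higher, 7.33-fold in the mean, and WT replicate 3 lay well below the other two.

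In the NS-DADm experiment Aldh18a1 was at 2.82 ± 0.157 FPKM in WT and 3.18 ± 0.37 in the mutant, a difference of 0.13 (SE 0.0991, limma adjusted p = 0.534). Pycr1 was at 0.07, 0.17 and 0.31 FPKM in WT and at 0.37, 0.19 and 0.66 in the mutant. These groups overlapped, stood for about 2 to 24 fragments a library, and were too low for a test.

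Counted over the set, 8 of the 10 members were called higher in KO and 0 lower, where 38.2% of all 11810 genes tested were called higher 27.6% were called lower and 65.8% were called at all; the members were chosen on this contrast, so nothing is read from that count. Of all called genes 58.1% were higher, and 46.7% with each library centred on its median gene. With that centring 8 members were called higher and 1, Aldh1l2, lower. Groups that did not overlap were found for 8 members higher (40.2% of all genes tested) and 1 lower (29.6%) in KO. Nothing is read from these counts either. Mthfd1l is 1 of the 8 higher members in both KO counts, and its direction was fixed by the minimum. In NS-DADm, groups that did not overlap were found for 3 of the 8 members tested, Mthfd2, Asns and Psph, in the higher direction (9.18% of all genes tested). They were found for Aldh1l2 in the lower direction (15.0%).

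**Figure D2:**
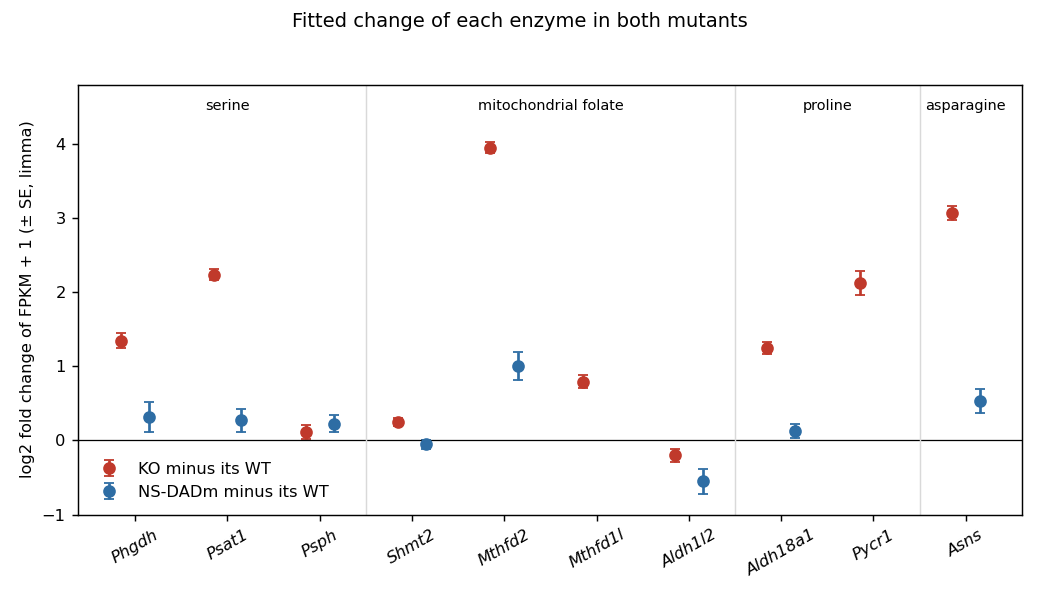
Fitted log2 fold change of FPKM + 1 with its SE (limma) for each enzyme, KO in red and NS-DADm in blue, each against its own WT and ordered by pathway. Mthfd1l and Pycr1 have no NS-DADm point because they were too low there, Mthfd2 has the largest value in both mutants (3.95 and 1.01), and Aldh1l2 is below 0 in both.

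Side by side, the fitted effect in KO minus that in NS-DADm was 2.54 for Asns (SE 0.205), 1.97 for Psat1 (SE 0.172), 1.12 for Aldh18a1 (SE 0.126) and 1.04 for Phgdh (SE 0.24). It was 0.35 for Aldh1l2 (SE 0.2), 0.30 for Shmt2 (SE 0.0758) and -0.11 for Psph (SE 0.154). Across all genes tested in both experiments 45.5% differed between the effects (limma, adjusted p under 0.05), 59.6% of them in the higher direction, or 45.1% with centring.

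Within the NS-DADm experiment the members also varied between libraries of the same group. Replicate 3 gave the highest level of its group for 9 of 10 members in WT and for 7 of 10 in the mutant, and replicate 3 of both groups was rich in atrial RNA. NS-DADm replicate 1, also rich in atrial RNA, was highest for 1 member, and replicate 2 for 2. The same count over all genes was not made, so nothing is read from these counts. The summed atrial markers spanned 286.6 to 4719.8 FPKM over the WT and 588.3 to 6613.0 over the mutant libraries, with 0 of 8 called. In the model with the atrial term the difference of Asns went from 0.53 to 0.41 (SE 0.162, limma adjusted p = 0.252). Psat1 went from 0.27 to 0.14 (SE 0.142, limma adjusted p = 0.67) and Phgdh from 0.31 to 0.07 (SE 0.134, limma adjusted p = 0.833), so these were smaller by more than 1.5 times.

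**Figure D3:**
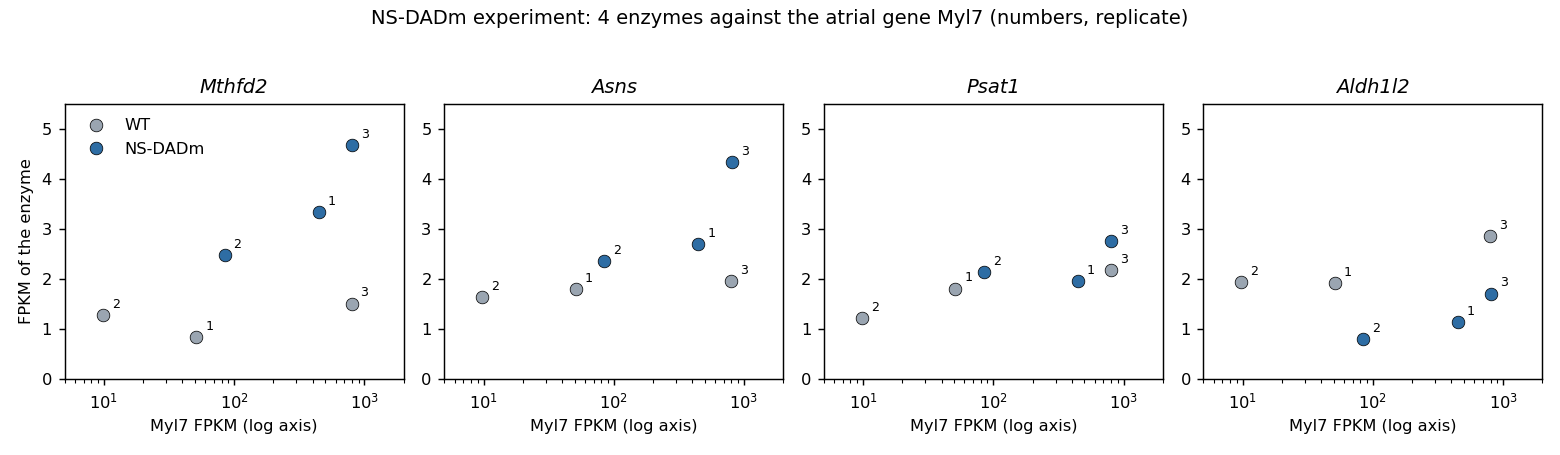
FPKM of Mthfd2, Asns, Psat1 and Aldh1l2 (linear axis) against the atrial gene Myl7 (logarithmic axis) in the 6 libraries of the NS-DADm experiment, with the replicate number beside each point. At like Myl7 levels (795.5 and 804.5 FPKM) replicate 3 of the mutant has more Mthfd2 and Asns and less Aldh1l2 than replicate 3 of WT.

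Most mitochondrial members have a paralog that carries out the same or a like step, often in the cytosol. Paralogs can share reads, and the sources used here do not say how the authors' counting divided such reads. Mthfd2l, the related mitochondrial dehydrogenase of adult tissue, rose from 2.83 ± 0.0833 to 3.90 ± 0.199 FPKM in KO (limma adjusted p = 0.00112), far less than Mthfd2. The ratio of Mthfd2 to Mthfd2l was 0.779, 0.836 and 1.05 in WT and 13.1, 14.2 and 13.4 in KO, so Mthfd2 was near or below its paralog in WT and far above it in KO. In the NS-DADm experiment the ratio was 0.257, 0.384 and 0.59 in WT and 1.08, 0.792 and 2.06 in the mutant, also without overlap.

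Aldh1l1, the cytosolic partner of Aldh1l2, fell from 1.46 ± 0.182 to 0.540 ± 0.0656 FPKM in KO (limma adjusted p = 7.85e-05). The ratio of Aldh1l2 to Aldh1l1 was therefore higher in KO, 3.26 ± 0.569 against 1.48 ± 0.163, though Aldh1l2 itself was lower. In NS-DADm, where Aldh1l1 was at 2.05 ± 0.384 and 2.92 ± 1.1 FPKM (limma adjusted p = 0.375), the ratio was lower in every mutant library, at 0.491, 0.356 and 0.408 against 1.11, 0.99 and 1.15. The ratio of these formyl-folate dehydrogenases thus lay on opposite sides of WT in the mutants. The change in ratio between the mutants was not tested.

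The cytosolic Shmt1 and Mthfd1 did not pass in either experiment (limma adjusted p = 0.984 and 0.453 in KO, 0.405 and 0.686 in NS-DADm). Shmt2 was 5.20 ± 0.467 times Shmt1 in WT and 6.24 ± 0.887 times in KO, overlapping ranges. Mthfd1l was 0.0178 ± 0.00426 of Mthfd1 in WT and 0.0966 ± 0.00742 in KO. Pycrl, a reductase that forms proline and is related to Pycr1, rose 1.32-fold in KO (limma adjusted p = 0.000109). Of the 5 isozymes counted here 2 rose and 1 fell in KO, and 0 passed in NS-DADm. Over all genes tested 38.2% were called higher and 27.6% lower in KO, and 2.69% were called in NS-DADm.

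**Figure D4:**
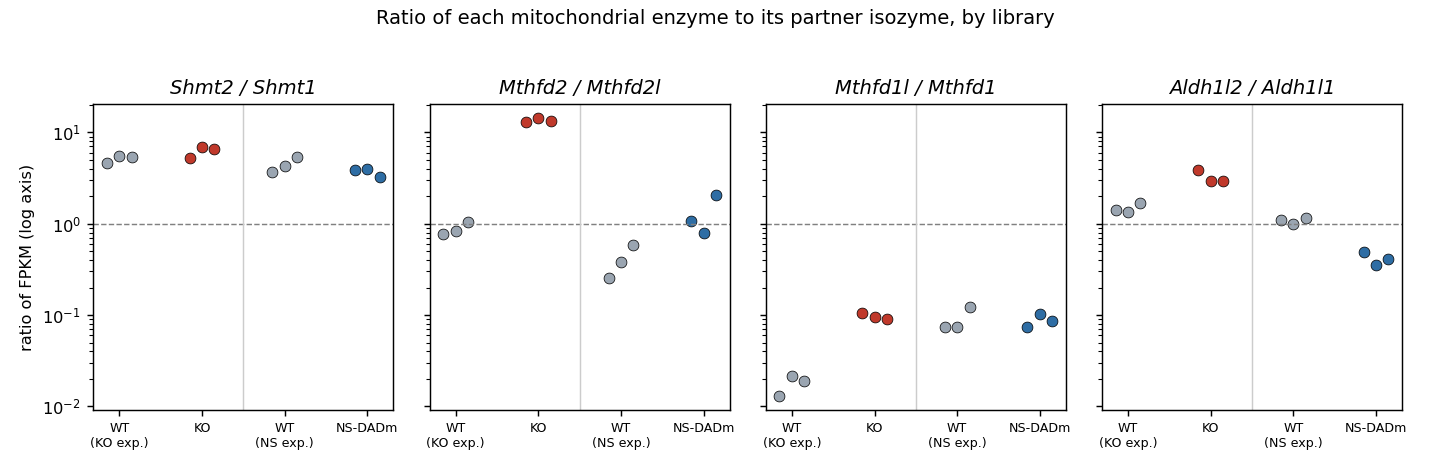
Ratio of the FPKM of 4 members to that of a partner isozyme in each library (logarithmic axis, dashed line at equal levels). Mthfd2 lies above Mthfd2l in all KO libraries (13.1 to 14.2 times), and Aldh1l2 relative to Aldh1l1 is higher in KO and lower in NS-DADm than in the matching WT.

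The neighbouring steps of the pathway were described from lists chosen with results of these data known. In NS-DADm 2.69% of all genes tested were called, so a short list without a call there is near that share. Of 16 tested genes of the folate cycle and folate transport, 5 rose and 4 fell in KO. That is near the 38.2% called higher and 27.6% called lower of all genes tested. The median of the list was -0.01 on the log2 scale beside 0.06 for all genes tested. The largest fall was in Mtr, methionine synthase, which joins the folate and methionine cycles, from 17.8 ± 0.105 to 6.07 ± 0.0656 FPKM (limma adjusted p = 2.44e-09). Ggh, which trims the glutamate tail of stored folates, rose from 12.2 ± 1.24 to 18.1 ± 0.456 FPKM (limma adjusted p = 4.94e-05). In NS-DADm 0 of 15 passed; Mtr was at 13.4 ± 1.83 and 14.5 ± 1.23 FPKM (limma adjusted p = 0.624).

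Of 11 tested genes that use serine and glycine, 5 fell and 1 rose in KO, beside 27.6% and 38.2% of all genes tested, with a median of -0.17. Gcat, which makes glycine from threonine breakdown, fell from 6.51 ± 0.855 to 3.16 ± 0.221 FPKM (limma adjusted p = 1.02e-05). Dld, the lipoamide dehydrogenase shared by the glycine cleavage system and the pyruvate dehydrogenase complex, fell from 280.9 ± 3.15 to 203.5 ± 4.85 (limma adjusted p = 3.12e-07). In NS-DADm 0 of 12 passed.

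Among 15 tested genes of glutamate, aspartate and proline metabolism, 5 rose and 8 fell in KO, with a median of -0.27. Over all genes tested 38.2% were called higher and 27.6% lower. The proline-degrading enzymes fell: Prodh from 9.49 ± 0.216 to 3.89 ± 0.288 FPKM (limma adjusted p = 1.24e-07) and Aldh4a1 from 40.3 ± 0.547 to 16 ± 0.519 (limma adjusted p = 1.64e-09). Summed with Oat, they were at 171.6 ± 5.42 FPKM in WT and 98.8 ± 1.09 in KO, while the sum of Aldh18a1 and Pycr1 was 4.27 ± 0.0929 and 16.9 ± 1.65. Most of the first sum was Oat (121.8 ± 5.12 FPKM in WT and 79.0 ± 1.54 in KO), which acts on ornithine. The second sum leaves out Pycrl (12.2 ± 0.583 and 16.1 ± 0.183 FPKM). Which sum is larger depends on the genes taken, so they do not rank proline breakdown against synthesis. In the NS-DADm experiment the sum with Oat was 159.6 ± 7.05 in WT and 157.8 ± 3.63 in the mutant. That of Aldh18a1 and Pycr1 was 3.00 ± 0.176 and 3.59 ± 0.596, and 0 of 15 genes passed.

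Ass1 and Asl, which use aspartate to make arginine, rose 2.66-fold and 2.27-fold in KO (limma adjusted p = 1.41e-07 and 7.77e-06). Of 13 genes of purine synthesis, which draws on glycine and formyl-folate, 6 rose and 4 fell in KO (5 and 7 with centring). Without centring, 38.2% of all genes tested were called higher and 27.6% lower. Atic, the transformylase of the last steps, rose 1.48-fold (limma adjusted p = 3.41e-06), and Prps2, which makes the ribose-phosphate donor, fell from 12.2 ± 0.742 to 5.35 ± 0.347 FPKM (limma adjusted p = 2.05e-07). Prps2 was the 1 purine gene called in NS-DADm, where it fell from 6.43 ± 0.16 to 4.39 ± 0.565 FPKM (limma adjusted p = 0.0343).

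Of 10 tested amino acid transporters 8 rose in KO, 2 of them tested only through the KO libraries, and 2 fell. Over all genes tested 38.2% were called higher and 27.6% lower. Slc7a5, the light chain of the LAT1 carrier of large neutral amino acids, rose from 1.84 ± 0.0862 to 9.58 ± 0.283 FPKM (limma adjusted p = 1.7e-09). Slc38a3, a glutamine carrier, fell from 44.3 ± 2.35 to 22.0 ± 0.714 (limma adjusted p = 3.31e-08). In NS-DADm 0 of 9 passed, with Slc7a5 at 2.01 ± 0.205 and 2.84 ± 0.594 FPKM (limma adjusted p = 0.183).

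In the list of ATF4 pathway regulators and targets, which holds genes outside amino acid synthesis, 14 of 21 tested rose and 5 fell in KO. The shares over all genes tested were 38.2% and 27.6%. The median of the list was 0.67, and it was chosen with results of these data known. Atf4 itself rose from 57.2 ± 1.4 to 123.5 ± 2.38 FPKM (limma adjusted p = 1.02e-09). Gdf15, a stress-induced secreted factor, rose from 2.97 ± 0.756 to 19.4 ± 1.39 (limma adjusted p = 2.11e-08). Ddit4, an inhibitor of mTORC1 signalling, fell from 21.9 ± 0.534 to 7.01 ± 0.744 (limma adjusted p = 1.46e-08).

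In NS-DADm 4 of 20 genes of the ATF4 list were called, all higher, beside 1.26% of all genes tested; the list was chosen with results of these data known. Atf4 went from 55.5 ± 5.32 to 72.0 ± 1.3 FPKM (limma adjusted p = 0.0341) and Atf5, a related factor, from 41.0 ± 3.2 to 65.1 ± 9.44 (limma adjusted p = 0.0179). Gdf15 went from 0.837 ± 0.203 to 2.14 ± 0.341 (limma adjusted p = 0.0179) and Ppp1r15a, which directs the removal of the phosphate from eIF2alpha, from 12.1 ± 1.99 to 21.5 ± 2.94 (limma adjusted p = 0.0193). Asns and Psat1 were not called there.

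**Figure D5:**
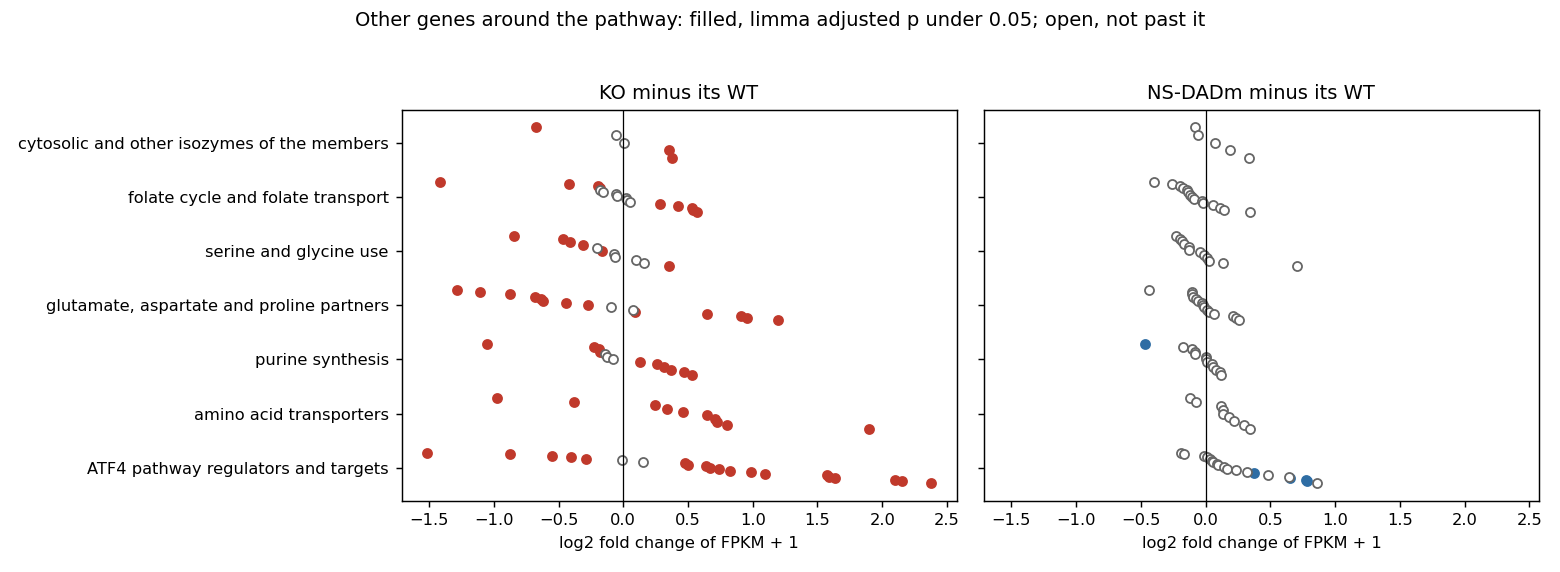
Fitted log2 fold change of FPKM + 1 for every tested gene of 7 lists around the pathway, KO on the left and NS-DADm on the right, filled where limma's adjusted p was under 0.05. In KO the folate and purine lists spread to both sides of 0, and in NS-DADm the filled points are 4 genes of the ATF4 list and Prps2.

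The 5 genes whose levels over the 12 libraries lay nearest to the median profile of the members, by root mean square distance in log2 units among 10673 genes, were Svep1 (0.063), Bgn (0.087), Ppm1m (0.088), Inppl1 (0.093) and Stab1 (0.095). Svep1 encodes an extracellular matrix protein, Bgn the matrix proteoglycan biglycan, and Stab1 a scavenger receptor of macrophages and endothelium. The median member was 1.24 to 1.4 log2 units above WT in the KO libraries and 0.06 to 0.37 in the NS-DADm libraries. The profile follows the median of the members, so genes with the much larger differences of Mthfd2 and Asns are not among these.

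Markers of other cell types moved with the KO genotype as well, where 38.2% of all genes tested were called higher and 27.6% lower. The 12 macrophage markers all rose in KO, and their summed FPKM was 310.6 to 339.4 in the WT and 1872.5 to 1914.8 in the KO libraries. Of 12 fibroblast markers 9 rose and 2 fell (sums of 1557.7 to 1604.9 and 2546.4 to 2554.2), with 1 of the rises tested only through the KO libraries. All 8 tested cycling cell markers were called higher, but for 6 of them the minimum was met in KO alone, so their direction was fixed (sums of 6.0 to 6.9 and 30.1 to 32.7). Of 15 cardiomyocyte markers 4 rose and 8 fell (sums of 73057.1 to 77348.9 and 50199.8 to 50924.7), and of 9 endothelial markers 1 rose and 7 fell. Of 7 tested atrial markers 5 rose and 1 fell in KO, with sums of 145.1 to 152.1 in WT and 1959.8 to 2015.4 in KO. Most of the KO sum was Nppa (116.4 ± 3.9 and 1846 ± 32.0 FPKM), which stressed ventricles also express. The other rises were in Sln (2.83 to 35.5 FPKM), Myl4 (9.01 to 79.2), Dkk3 (1.95 to 6.56) and Myl7 (7.68 to 11.6). Tbx5 fell from 8.07 to 6.02. What lies behind these differences was not tested. In NS-DADm 5 of 11 tested macrophage markers rose, beside 1.26% of all genes tested, with sums of 289.0 to 324.8 and 375.4 to 432.5. There 0 of 11 fibroblast, 0 of 9 endothelial and 0 of 4 cycling cell markers passed, where 2.69% of all genes tested were called. Of 15 cardiomyocyte markers 1 was called in NS-DADm, Mybpc3, which fell from 925.4 ± 11.9 to 758.9 ± 20.2 FPKM (limma adjusted p = 0.0297). In KO Mybpc3 rose from 815.6 ± 15.5 to 1742 ± 24.3 FPKM. The part of these cells in the levels of the 10 enzymes was not tested.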

How the data were processed

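The members and all lists were chosen with earlier results of these data known. The authors deposited FPKM per gene and library in 2 tables, 1 for each experiment, per the file headers. They also deposited signed fold change scores (the ratio, or minus its inverse) and, for NS-DADm, q-values of their own comparisons, per the file headers; these are quoted as the authors' values. Other values in those tables were not used. Per the labels' protocols, TRIzol and a column kit gave the total RNA, an MGISEQ-2000 gave an average of 60 M reads (M, mega) per sample, and SOAPnuke 1.5.2 took out reads holding adapter. In the submitters' processing notes stand, without roles, the tools Bowtie2 2.2.5, HISAT2 2.0.4, DESeq2 1.4.5 and RSEM 1.2.12, and the build GRCm38.p6. The sources used here do not say whether counting used strand.

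Symbols turned into dates (24 in each table), numbers (7) and repeats (2) were left out, which kept 17043 and 17833 genes. For NS-DADm and its WT, each library lacked a value for 1654 to 2212 genes, which were taken as 0. Another 3 columns of values matched no sample and were not used. As the values are FPKM and not counts, limma 3.58.1 (trend, robust; R 4.3.3) was run on log2(FPKM + 1). A gene entered if 3 or more of the 6 libraries reached 1 FPKM. The fit was run on simulated data with independent noise for each gene. Those data lack the atrial variation that genes share across the NS-DADm libraries, so the run says nothing of its effect on the calls. P-values were adjusted by Benjamini-Hochberg over all genes tested and called under 0.05. The difference of the effects was fitted in 12 libraries with 4 group means, each effect against the WT of its own table. The pseudocount of 1 understates changes of low genes. Since FPKM is relative, abundant genes that move shift all others.

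Depth was estimated from steps in low FPKM values, of which 59.1% to 78.0% per library fell within 0.15 of a whole fragment (30% by chance), so no counts were rebuilt and no count test was run. Mean chi-square per gene between replicates was 1.31 to 5.75, and none were merged. Promoter windows of 300 bases are from RefSeq, and gene positions from the GENCODE annotation of GRCm38.p6. Named were all members, Hdac3 and Ncor1, the isozymes, and 5 genes of like profile. From the lists, up to 2 largest called rises and falls in KO and all genes called in NS-DADm were named. Oat, Myl7 and some other atrial, cardiomyocyte and sex-linked marker genes are named beyond this rule. CCAAT and the atrial term were chosen after values were seen. A few list genes are not reported here and were left out of the lists' counts. Alternatives were another pseudocount and filter, centring, a replicate block, plain limma variances and leaving out each library.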

Additional observations from a re-analysis of the deposited data

Results flagged for a closer look

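Of 28 named neighbouring genes with the test, 21 are given here because the effect in KO differed from the effect in NS-DADm, each against its own WT, by a test of the difference itself (limma in 12 libraries, adjusted p under 0.05, which 45.5% of all genes tested passed). Most of the 28 were named for being among the largest calls of their list in KO, so this share is not set against that of all genes. Values are log2 differences, the KO effect minus the NS-DADm effect.

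Around folate, Mtr had a difference of -1.52 (limma adjusted p = 1.39e-07), with effects of -1.41 and 0.11. Aldh1l1 had one of -1.01 (limma adjusted p = 0.00168), with effects of -0.67 and 0.34 that lie on opposite sides of 0. The differences of Ggh, Mthfd2l and Pycrl were 0.80, 0.44 and 0.30, the last with a limma adjusted p of 0.0449. For genes that use serine and glycine they were -0.65 (Gcat) and -0.42 (Dld).

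The proline-degrading Aldh4a1 and Prodh had differences of -1.18 (limma adjusted p = 3.65e-09) and -1.08 (limma adjusted p = 0.00011), with NS-DADm effects of -0.10 and -0.02. The aspartate-using Ass1 and Asl had differences of 1.27 and 0.95. In purine synthesis they were 0.64 for Atic, 0.36 for Paics and -0.59 for Prps2, which was lower in both mutants.

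Among transporters, Slc7a5 had a difference of 1.55 (limma adjusted p = 8.06e-07), Slc38a3 one of -1.20 and the cationic amino acid carrier Slc7a1 one of -0.67. In the ATF4 list the differences were 1.61 for Gdf15, 1.5 for Atf5, 0.72 for Atf4 and -1.76 for Ddit4. Ppp1r15a, called higher in both mutants, had a difference of 0.04 (SE 0.154, limma adjusted p = 0.869) and was not among the 21.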

How the results depend on the processing

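In KO the log2 differences of the members kept their direction under each alternative in which they were fitted. Mthfd1l was not fitted with the filter on the mean of all libraries or when any KO library was left out. It fell below the minimum there. Of 116 values 107 moved by less than the spread between replicates, and the 9 others moved with the pseudocount of 0.1 or with centring (Mthfd2 4.36 and Mthfd1l 1.96 with the former). The 7775 calls in KO were 6814 to 7352 when each library was left out in turn, and the 4953 differences of the effects 4467 to 4905. Centring on library medians moved the log2 values by 0.087 in KO and -0.015 in NS-DADm.

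NS-DADm was less stable. Its 315 calls were 164 with no filter on low values, and 84 to 248 with each library left out, with 99 and 84 without WT replicates 1 and 2 and 148 without NS-DADm replicate 1. The rise of Mthfd2 was 1.01 but not called with no filter on low values (limma adjusted p = 0.073), where more genes are tested, and 0.82 to 1.18 with each library left out. Its limma adjusted p ranged from 0.013 to 0.11 over the alternatives. With the replicate block there were 496 calls, Mthfd2 had an adjusted p of 0.013 (limma) and Aldh1l2 (-0.55) was called (limma adjusted p = 0.0358). Same-numbered libraries deviated together at correlations of -0.0559 to 0.00204 in KO and 0.00662 to 0.435 in NS-DADm, so the numbers were not taken to pair the samples. The atrial term, chosen after seeing the data, gave 245 calls. In promoters, the tighter element TGATGCAAN was held by 1 of the 9 members. Depth limits Mthfd1l, Pycr1 and Phgdh, which rest on 10 or fewer estimated fragments in some WT libraries.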
